A study of Homo sapiens with 30 samples.

Results

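The 30 genes described here encode enzymes that make, convert or reclaim the nucleotides of RNA and DNA. They were taken by gene symbol from the 58735 genes of the deposited table, each was found on 1 row, and all 30 passed the filter on low counts. By role, 5 genes belong to the pentose phosphate pathway and the synthesis of phosphoribosyl pyrophosphate (PRPP), 10 to purine synthesis, 4 to pyrimidine synthesis, 4 to deoxynucleotide synthesis and 5 to salvage, and 2 are other nucleotide kinases.

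The purine ring is assembled step by step on PRPP, an activated ribose phosphate that the pentose phosphate pathway feeds, and ends in IMP, from which AMP and GMP branch off. The pyrimidine ring is built first and then joined to PRPP to give UMP, the source of the cytosine and thymine nucleotides. Ribonucleotide reductase and thymidylate synthase supply the deoxynucleotides for DNA replication, and salvage enzymes return free bases and nucleosides to the pool. The kinase mTOR is known as a regulator of both ring-building pathways, and androgens are known to promote anabolic metabolism in prostate cancer cells.

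All samples were LNCaP, a human prostate cancer cell line that depends on androgen, and all carried a short hairpin RNA against mTOR. Into these cells an inducible system put 1 of 5 rescue constructs, here called lines. EV received the vector alone and WT received unaltered mTOR. NES received mTOR with a nuclear export signal, NLS received it with a nuclear localization signal, and NLSKD received the NLS protein made kinase-dead by the D2357E mutation. Each line spent 48 h in 2% charcoal-stripped serum, which is depleted of steroids, and a further 24 h with the synthetic androgen R1881 (10 nM) or its ethanol vehicle (0.1%). Each of the 10 groups had 3 libraries of total RNA, and the labels do not say whether these were separate cultures or clones, so a p-value here reflects only how far these libraries spread, a spread that may be technical. No cells without the hairpin were analysed here, so EV, the reference below, is itself a knockdown.

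Library totals ran from 21435364 to 61762468 counts, and the share of mitochondrially encoded counts ran from 3.90% to 11.7%, above 9% in 5 libraries (EV vehicle replicate 3, NLS vehicle replicate 2, NLSKD vehicle replicate 2, NES R1881 replicate 2 and NLS R1881 replicate 2). MTOR, the targeted gene, had its lowest level in EV, at 25.7 ± 4.86 CPM (counts scaled to library size; SD, n = 3 here and below) under vehicle and 66.1 ± 9.54 CPM under R1881, and its highest in NES, at 5252 ± 2028 and 4296 ± 1398 CPM. WT had 1840 ± 276 and 1603 ± 183 CPM of MTOR under vehicle and R1881. NLS had 930 ± 290 and 1037 ± 362 CPM, and NLSKD 1016 ± 426 and 1082 ± 365 CPM. In EV, MTOR was 2.57-fold higher under R1881 than under vehicle (edgeR adjusted p = 0.00786). The rescue lines exceeded EV from 15.7-fold (NLS under R1881) to 204-fold (NES under vehicle). Against EV, the amount of MTOR RNA and the construct therefore cannot be told apart. The luminal markers FOLH1 and HOXB13 were at 88.9 FPKM (a count scaled to gene length and library size) or more in every library. Of 13 markers of other cell types, the basal markers KRT5 and TP63 were at 0.0153 FPKM or less, the blood markers PTPRC and CD68 at 0.160 FPKM or less, the neuroendocrine markers at 0.637 FPKM or less, and the fibroblast marker COL1A2 was listed at 0 throughout. The other fibroblast markers were detected in every library, COL1A1 at 0.564 to 2.23 FPKM and PDGFRB at 0.0297 to 0.196 FPKM. The basal keratin KRT14 rose with R1881 in all 5 lines, from at most 0.176 FPKM in any vehicle library to 0.102 to 1.245 FPKM, and in WT under vehicle, where it was listed at 0, it was lower than in EV. VIM, an intermediate filament of mesenchymal cells, was higher than in EV in all 4 rescue lines under both treatments, at 2.01 to 5.42 FPKM against 0.789 to 1.48 FPKM. The 13 markers summed to 2.57 to 4.29 FPKM in the EV libraries and 4.08 to 7.11 FPKM in the others, and their part in the results below was not tested. Counts pool all cells of a library, so fewer cells that express a gene and less RNA per cell cannot be told apart.

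The levels of the 30 genes spanned a wide range when compared per length. IMPDH2, which makes the first step from IMP towards GMP, was the highest by median over the 30 libraries, at 144 FPKM (110.0 to 157), followed by the adenine salvage enzyme APRT at 93.9 FPKM (43.5 to 214). PAICS, a bifunctional enzyme of the purine pathway, came next at 83.9 FPKM (67.5 to 104). In all, 7 genes had a median above 50 FPKM and 10 a median under 10 FPKM. Among the latter were PFAS, the purine step that turns FGAR into FGAM, at 4.86 FPKM (2.66 to 7.29), and DHODH, the mitochondrial enzyme of pyrimidine synthesis, at 3.30 FPKM (1.92 to 5.22). The lowest value belonged to ADSL, which acts at 2 steps of purine synthesis, at 0.649 FPKM (0.441 to 0.972). ADSL shares 43935 bases of its span with the same-strand gene AL022238.4, so reads of these transcripts may have been left out or split and its level is uncertain.

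**Figure D1:**
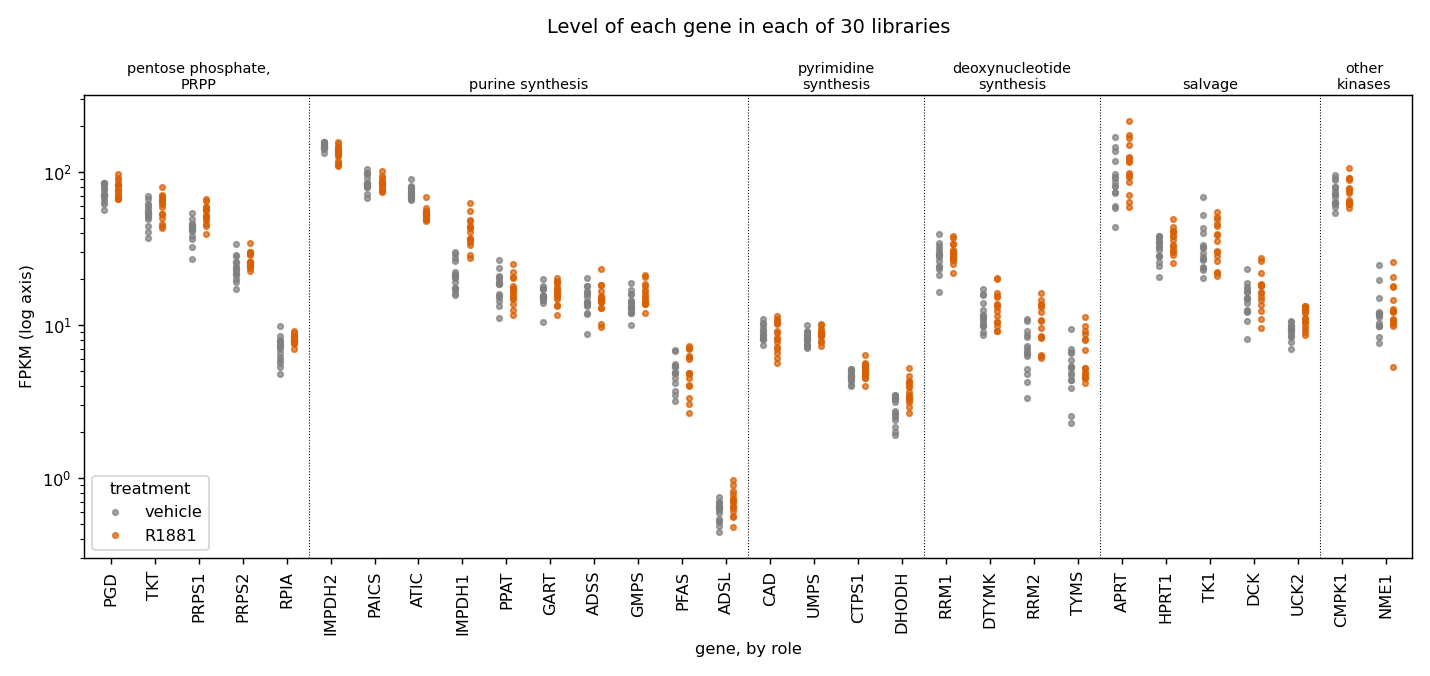
FPKM of each of the 30 genes (log axis) in each of the 30 libraries, ordered by role and by median level, grey for vehicle and orange for R1881. IMPDH2 is highest and ADSL lowest; the orange points of IMPDH1 lie mostly above the grey ones and those of ATIC mostly below.

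Variation between groups differed from gene to gene. The ratio of the highest to the lowest group mean CPM had a median of 1.5 over the 30 genes, was under 1.5 for 15 of them and over 2 for 5. The 5 were IMPDH1 (2.98), the small subunit of ribonucleotide reductase RRM2 (2.88), thymidylate synthase TYMS (2.23), PFAS (2.21) and APRT (2.05). The highest mean of a gene was most often found in NES under R1881 (11 genes) or WT under R1881 (8 genes), and the lowest in NLS under vehicle (14 genes). Neither these counts nor the ratios were worked out for all genes, so they may not be particular to these 30. Summed over the 30 genes the level was 4429.7 ± 27.2 CPM in NES under R1881 and 3789.7 ± 156 CPM in NLS under vehicle, and 3882 ± 72.2 CPM in EV under R1881.

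Differences were tested with edgeR's quasi-likelihood test over all 18296 genes that passed the filter, and a gene is said to rise or fall only where its Benjamini-Hochberg adjusted p was under 0.05. Fold changes are log2 values ± the standard error. In the 17 comparisons between 2 groups, 17 of the 510 tests of these genes passed (3.33%), against 4.85% of all tests over all genes. Of the 30 genes, 7 were called at least once (23.3%), against 23.1% of all genes tested, so the share of genes called was near that of the table as a whole. The calls were 14 increases and 3 decreases, and 13 of the 17 fell on the purine genes IMPDH1, PFAS and ATIC. None of the 5 pentose phosphate and PRPP genes or the 2 other kinases was called.

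**Figure D2:**
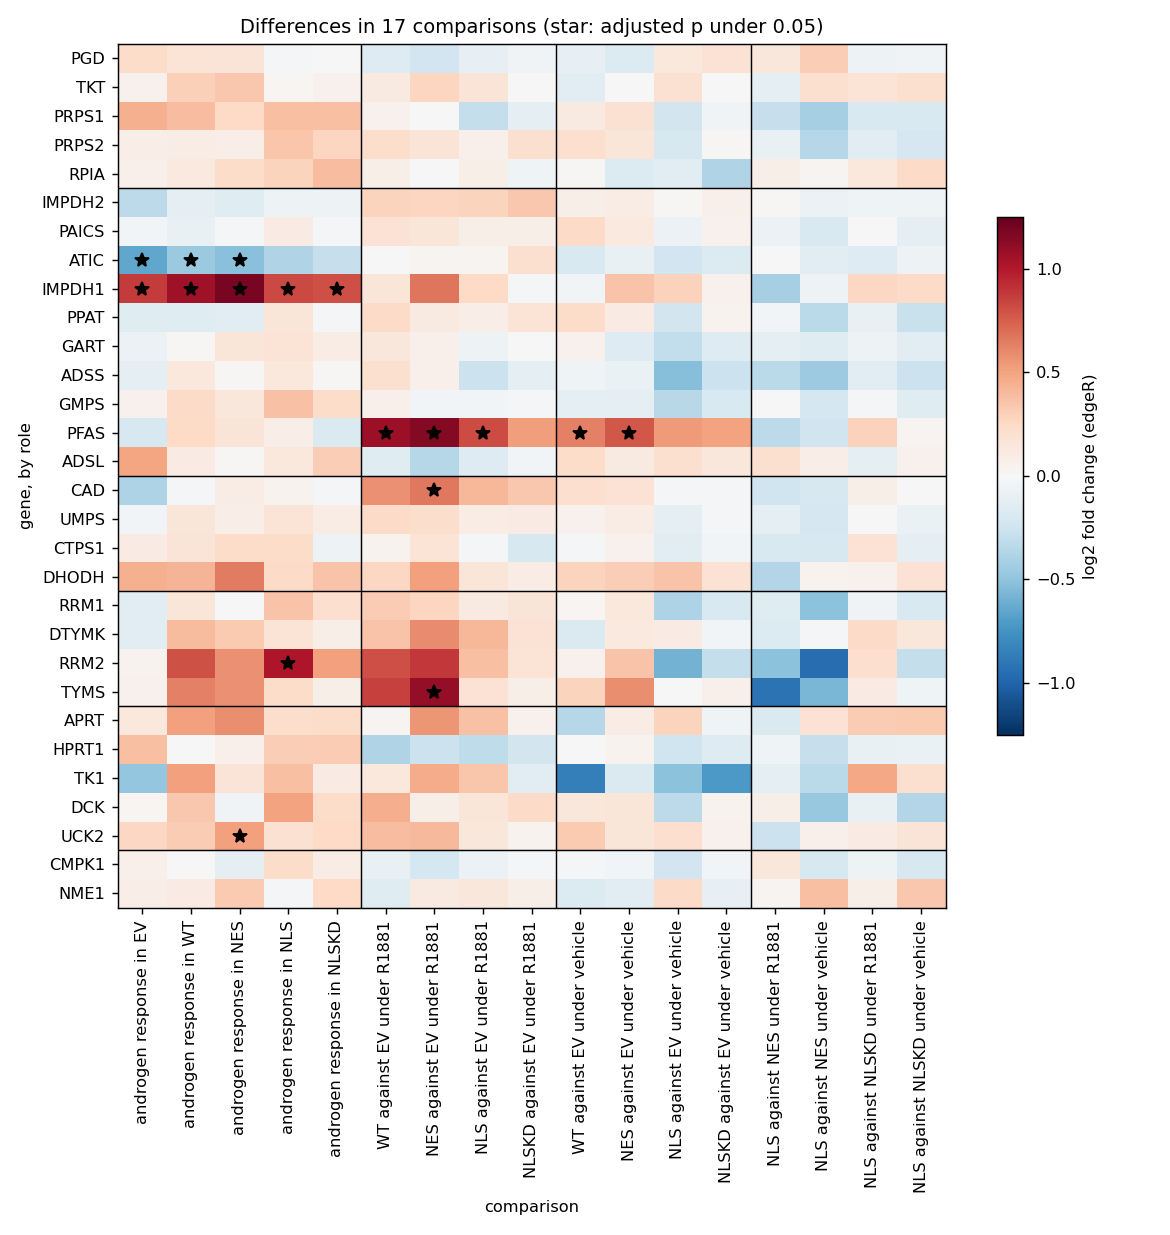
Log2 fold change of the 30 genes (rows, by role) in the 17 comparisons between 2 groups (columns), red for higher and blue for lower in the first-named group or with R1881, with a star where the edgeR adjusted p was under 0.05. Stars lie in the rows of IMPDH1 and ATIC for the androgen responses and of PFAS for the comparisons with EV, with 1 each for RRM2, UCK2, CAD and TYMS.

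The 300 bases around the start of the genes that carry most calls, and of TYMS, are given from RefSeq (GRCh38.p14, 250 bases before to 50 after the first transcribed base, 5′ to 3′ on the gene's strand) because the calls divide by treatment and by rescue. Of the 30 genes, 28 matched the RefSeq table, with 36 such windows. Capitals mark matches on either strand to CACGTG (the E-box bound by MYC and related factors) and to TTTGGCGC or TTTCCCGC (2 forms of an E2F site). IMPDH1 lies at chr7:128409933-128410232 on the minus strand, ATIC at chr2:215311809-215312108, PFAS at chr17:8249039-8249338 and TYMS at chr18:657403-657702, these 3 on the plus strand. The windows follow the RefSeq start. Those of PFAS and IMPDH1 do not reach the first base of the counted gene, at 8247618 and 128410252.
IMPDH1: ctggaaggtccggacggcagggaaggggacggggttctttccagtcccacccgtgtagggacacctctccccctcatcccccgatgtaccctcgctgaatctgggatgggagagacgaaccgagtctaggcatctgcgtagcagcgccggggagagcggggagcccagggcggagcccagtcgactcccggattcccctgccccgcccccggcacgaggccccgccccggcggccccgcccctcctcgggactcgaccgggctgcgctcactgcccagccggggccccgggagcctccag
ATIC: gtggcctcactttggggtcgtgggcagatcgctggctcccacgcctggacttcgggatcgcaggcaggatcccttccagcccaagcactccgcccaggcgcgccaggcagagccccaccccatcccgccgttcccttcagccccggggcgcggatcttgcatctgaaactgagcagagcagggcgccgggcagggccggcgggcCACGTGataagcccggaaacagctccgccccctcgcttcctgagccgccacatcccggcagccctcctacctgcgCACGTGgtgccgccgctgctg
PFAS: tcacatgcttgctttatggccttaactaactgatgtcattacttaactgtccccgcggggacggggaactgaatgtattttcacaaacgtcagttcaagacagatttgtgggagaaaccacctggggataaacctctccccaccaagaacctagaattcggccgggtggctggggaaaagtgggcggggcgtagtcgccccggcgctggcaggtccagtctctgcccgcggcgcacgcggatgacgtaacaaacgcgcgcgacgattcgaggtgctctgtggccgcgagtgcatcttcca
TYMS: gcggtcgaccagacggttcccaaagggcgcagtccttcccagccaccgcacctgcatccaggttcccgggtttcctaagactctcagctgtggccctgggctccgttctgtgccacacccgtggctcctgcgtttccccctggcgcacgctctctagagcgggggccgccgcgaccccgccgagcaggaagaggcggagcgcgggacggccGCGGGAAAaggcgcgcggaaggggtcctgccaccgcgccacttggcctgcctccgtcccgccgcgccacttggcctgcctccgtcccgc
The ATIC window held 2 E-boxes, which begin 46 bases before and 29 bases after the start. The TYMS window held 1 E2F match, TTTCCCGC read on the other strand, and the windows of IMPDH1 and PFAS held none of these letters. CACGTG stood in 6 of the 36 windows (16.7%; in ATIC, DCK, DHODH, NME1, PAICS and PPAT), against 7.26% of all 35116 windows. TTTGGCGC was found in DCK and GART and TTTCCCGC in PRPS2 and TYMS, each 5.56% of the windows, against 0.652% and 1.63% of all windows. PAICS and PPAT start back to back on opposite strands, so their windows can share sequence. Whether their E-boxes are the same stretch counted in both was not checked.

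The first question was how androgen changed these genes in each line. IMPDH1 rose with R1881 in all 5 lines, and ATIC, the bifunctional enzyme that closes the purine ring, fell in EV, WT and NES. Of the remaining genes, the uridine and cytidine kinase UCK2 rose in NES and RRM2 rose in NLS. In EV 1 of the 30 genes rose and 1 fell, where 4.55% of all genes rose and 4.55% fell. In WT the counts were 1 and 1 (all genes 3.47% and 3.01%), in NES 2 and 1 (4.21% and 4.04%), in NLS 2 and 0 (2.78% and 1.66%) and in NLSKD 1 and 0 (2.48% and 1.60%). The 30 genes had a median log2 change of 0.05 for EV, 0.10 for NLSKD, 0.15 for NES, 0.16 for WT and 0.20 for NLS, beside medians over all genes from -0.04 in EV to 0.02 in NLS.

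IMPDH1 (ENSG00000106348, hg38 chromosome 7, 128392277 to 128410252) encodes the less abundant of the 2 IMP dehydrogenases, the enzymes that commit IMP to guanine nucleotides. In EV its level was 59.6, 95.9 and 58.4 CPM in the vehicle libraries and 130.3, 134 and 128 CPM in the R1881 libraries. The treated libraries of EV all lay above the untreated ones, and the change was 0.87 ± 0.23 (1.83-fold; edgeR adjusted p = 0.0126). In WT the level went from 64.7, 79.8 and 64.3 to 104, 164 and 168 CPM, a change of 1.06 ± 0.23 (edgeR adjusted p = 0.00281). In NES it went from 63.5, 110.3 and 100.3 to 181, 207 and 235 CPM, the highest level of any group, with a change of 1.18 ± 0.23 (2.27-fold; edgeR adjusted p = 0.000788). In NLS the vehicle libraries had 80.9, 105 and 75.7 CPM and the R1881 libraries 132, 183 and 151 CPM (0.83 ± 0.23, edgeR adjusted p = 0.0297). The lowest rise was in NLSKD, from 74.6, 77.7 and 69.9 to 123, 163 and 102 CPM (0.80 ± 0.23, edgeR adjusted p = 0.0394). No treated library overlapped an untreated one of its own line in any of the 5 lines. The rises in WT and NES were called under every alternative listed in the processing section. Those in the other lines were not: in EV the call was lost without vehicle replicate 1 (adjusted p = 0.0883) or 3 (0.0836) or without the libraries above 9% mitochondrial counts (0.0909), and in NLS without vehicle replicate 1 or 3 or R1881 replicate 2 or 3 (0.0860 to 0.195). In NLSKD it was lost without any 1 of 5 libraries, all but R1881 replicate 3 (0.0990 to 0.270). Without the libraries high in mitochondrial counts the adjusted p was 0.139 in NLS and 0.107 in NLSKD, and with library totals only it was 0.0677 and 0.0722. The call in NLS was also lost when the fit held only the 2 groups compared (0.218), and that in NLSKD with limma (0.0532).

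IMPDH2 showed no such rise. Its level in EV was 391, 430.5 and 373 CPM under vehicle and 304, 318 and 329 CPM under R1881, with no overlap, and the change of -0.33 ± 0.13 did not pass (edgeR adjusted p = 0.117). In the other lines the change of IMPDH2 ran from -0.15 in NES to -0.06 in NLS and NLSKD. By FPKM, IMPDH1 made up 11.8 ± 2.29% of both dehydrogenase genes in EV under vehicle and 23.8 ± 0.927% under R1881. The share was 11.2 ± 0.804% and 22.0 ± 3.21% in WT, 13.9 ± 2.99% and 29.1 ± 1.75% in NES, 14.1 ± 2.18% and 23.5 ± 1.80% in NLS, and 11.9 ± 1.01% and 19.5 ± 2.58% in NLSKD. In every line each of the 3 treated libraries had a higher share than each of the 3 untreated ones. Reads that match both paralogs could be split between them, and how such reads were counted is not given in the sources used here.

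ATIC (ENSG00000138363, hg38 chromosome 2, 215311817 to 215349773) moved the other way. In EV its level was 299.9, 354 and 313 CPM under vehicle and 193, 228 and 195 CPM under R1881, a change of -0.65 ± 0.12 (1.57-fold lower; edgeR adjusted p = 0.000704). In NES the level went from 321, 309.8 and 274 to 210.1, 212 and 208 CPM (-0.52 ± 0.12, edgeR adjusted p = 0.00657), and in WT from 266, 286 and 293 to 216, 196 and 200.03 CPM (-0.46 ± 0.12, edgeR adjusted p = 0.0194). The treated and untreated libraries did not overlap in these 3 lines. NLS had 257, 291 and 274 CPM before and 198, 223 and 210.4 CPM after, again without overlap, but the change of -0.38 ± 0.12 did not pass (edgeR adjusted p = 0.0914). In NLSKD the ranges overlapped, 262 to 311 CPM against 214 to 274 CPM (-0.28 ± 0.12, edgeR adjusted p = 0.339). The call in WT was lost without vehicle replicate 2 or 3 or R1881 replicate 2 or 3 (adjusted p 0.0773 to 0.0975). All 3 calls were also lost when genes with low counts were kept in the test (adjusted p 0.0861 to 0.416) or when the fit held only the 2 groups compared (0.0595 to 0.0998).

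**Figure D3:**
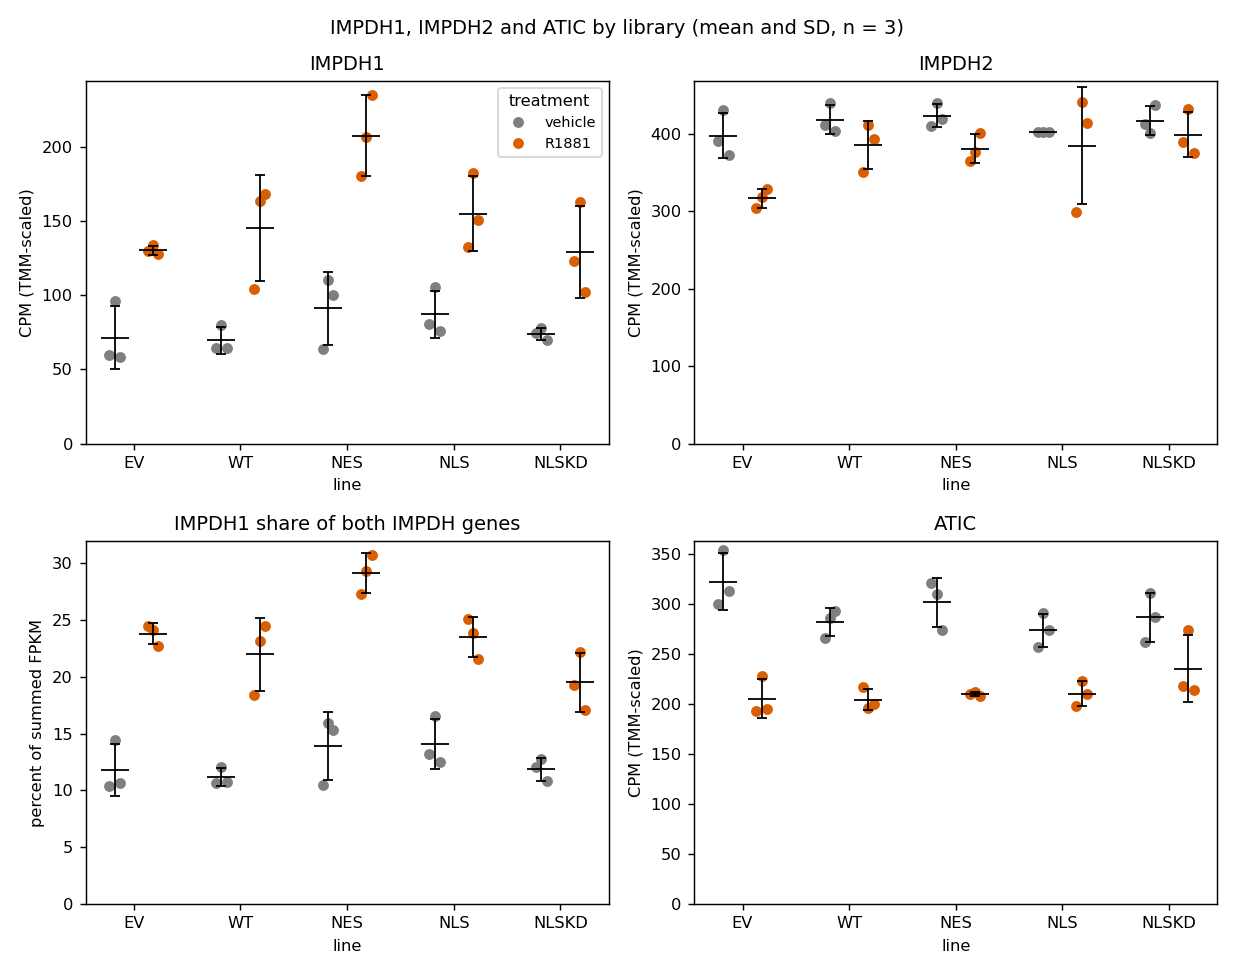
CPM of IMPDH1, IMPDH2 and ATIC and the IMPDH1 share of the FPKM of both IMPDH genes, per library (points), with the mean and SD of 3 libraries (black), by line and treatment. The orange R1881 points of IMPDH1 lie above the grey vehicle points in every line, and those of ATIC lie below in every line but NLSKD, where they overlap.

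Of the other genes, UCK2, which phosphorylates uridine and cytidine for reuse, rose with R1881 in NES, from 60.6, 65.6 and 69.1 to 97.0, 85.8 and 95.8 CPM (0.51 ± 0.14, edgeR adjusted p = 0.0177). The 2 sets of libraries did not overlap. In the other lines its change ran from 0.19 in NLS to 0.32 in WT and did not pass. The UCK2 span overlaps the opposite-strand genes TMCO1 by 225 bases and AL358115.1 by 9889 bases. RRM2 rose in NLS, where the vehicle libraries had 25.6, 17.6 and 35.0 CPM and the R1881 libraries 71.5, 34.7 and 51.7 CPM (1.02 ± 0.28, edgeR adjusted p = 0.0344). The lowest treated library lay below the highest untreated one. UCK2 was lost without vehicle replicate 1 or 2 or R1881 replicate 1 or 3 of NES (adjusted p 0.0653 to 0.125), and RRM2 without vehicle replicate 1 or 2 or R1881 replicate 1 or 3 of NLS (0.0820 to 0.272). Both were also lost with library totals only (0.104 and 0.0838) and with only the groups compared in the fit (0.170 and 0.404), UCK2 without the filter on low counts (0.322), and RRM2 with limma (0.0552) and without the libraries high in mitochondrial counts (0.105).

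PRPS1, which makes PRPP, had a positive change in each line, from 0.25 in NES to 0.44 in EV, and passed in none (lowest edgeR adjusted p = 0.128, in EV). Its libraries of EV had 129, 85.0 and 114 CPM under vehicle and 167, 127 and 152 CPM under R1881, with overlap. RPIA, the isomerase that yields ribose 5-phosphate, changed by 0.06 in EV to 0.39 in NLSKD, where 8.86, 13.6 and 10.5 CPM stood against 13.1, 14.3 and 15.8 CPM (edgeR adjusted p = 0.419). DHODH changed by 0.24 in NLS to 0.65 ± 0.23 in NES, where it went from 15.0, 23.1 and 24.0 to 27.8, 32.7 and 37.0 CPM without overlap (edgeR adjusted p = 0.0779).

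Libraries with the same replicate number deviated together within EV, WT, NES and NLSKD, so the fit with the replicate number as a block bears on these responses. RRM2 in WT, with 38.4, 34.8 and 49.5 CPM under vehicle and 85.1, 60.1 and 67.5 CPM under R1881 and no overlap, changed by 0.79 ± 0.28 and did not pass (edgeR adjusted p = 0.103). It was called with the block (0.80, adjusted p = 0.0075), without the filter on low counts (0.0205) and with only the 2 groups in the fit (0.0221). In EV the block raised the count from 2 to 5, with IMPDH2 (-0.33, adjusted p = 0.0482), PRPS1 (0.45, adjusted p = 0.0204) and CAD (-0.40, adjusted p = 0.0469) added. In NES the count went from 3 to 5 with DHODH (0.66, adjusted p = 0.0198) and RRM2 (0.61, adjusted p = 0.0381). The share of all genes called with the block was not kept. A general gain in calls therefore cannot be told apart from a gain in these genes.

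Whether the response to androgen differed between a rescue line and EV was tested as an interaction. None of the 30 genes was called for WT, NES, NLS or NLSKD (0 in edgeR, 0 in DESeq2 and 0 in limma for each), where 0.0437%, 0%, 0.0164% and 0.0164% of all genes were. At an unadjusted p under 0.05 the counts were 0, 0, 1 and 1, namely RRM2 in NLS (0.97 ± 0.40) and ATIC in NLSKD (0.37 ± 0.18), both with an edgeR adjusted p of 1. Over all genes, 3.86%, 2.68%, 3.83% and 3.61% had an unadjusted p under 0.05 in WT, NES, NLS and NLSKD. For IMPDH1 the response minus that of EV was 0.31 ± 0.32 in NES, 0.19 ± 0.32 in WT, -0.04 ± 0.32 in NLS and -0.07 ± 0.32 in NLSKD. Each of these differences lay within 1 standard error of 0, which does not show that the lines responded alike.

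The second question was how the rescue lines differed from EV. PFAS was called most often: it was higher than in EV in WT and NES under both treatments and in NLS under R1881. Under R1881 PFAS was joined in NES by CAD, the enzyme of the first 3 steps of pyrimidine synthesis, and by TYMS, which makes dTMP. The counts of higher and lower genes under R1881 were 1 and 0 in WT (all genes 3.66% and 4.83%), 3 and 0 in NES (3.27% and 3.69%), 1 and 0 in NLS (2.79% and 3.44%) and 0 and 0 in NLSKD (2.80% and 2.95%). Under vehicle they were 1 and 0 in WT (2.30% and 4.41%), 1 and 0 in NES (1.87% and 3.07%), 0 and 0 in NLS (1.59% and 2.98%) and 0 and 0 in NLSKD (1.47% and 2.54%). All 4 lines were set against the same EV libraries, so these comparisons are not independent of each other.

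PFAS (ENSG00000178921) spans 8247618 to 8270491 on hg38 chromosome 17 in the files. Under R1881 it had 17.1, 19.9 and 21.7 CPM in EV. In WT it had 28.7, 47.7 and 47.1 CPM (1.07 ± 0.19, 2.11-fold; edgeR adjusted p = 0.000367) and in NES 40.0, 41.2 and 48.4 CPM (1.14 ± 0.19, 2.21-fold; edgeR adjusted p = 0.000254). NLS had 30.4, 31.9 and 41.0 CPM (0.82 ± 0.19, edgeR adjusted p = 0.00725). In NLSKD the level was 26.5, 26.3 and 31.7 CPM, and the difference of 0.53 ± 0.19 did not pass (edgeR adjusted p = 0.112). Every library of the 4 rescue lines lay above every EV library. The differences in WT and NES were called under every alternative, while that in NLS was lost without EV R1881 replicate 1 (adjusted p = 0.0563) or NLS R1881 replicate 3 (0.0689), and with only the 2 groups in the fit (0.129).

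PFAS was also higher than in EV without androgen. Under vehicle PFAS had 23.9, 22.6 and 21.05 CPM in EV, 35.6, 36.4 and 32.3 CPM in WT (0.62 ± 0.19, edgeR adjusted p = 0.0435) and 27.3, 45.1 and 43.5 CPM in NES (0.78 ± 0.19, edgeR adjusted p = 0.0121). NLS had 34.5, 31.6 and 31.7 CPM (0.53 ± 0.19, edgeR adjusted p = 0.125) and NLSKD 31.4, 29.2 and 35.0 CPM (0.50 ± 0.19, edgeR adjusted p = 0.176), and neither passed. Again each rescue library lay above each EV library. The call in WT was lost without any 1 of its 6 libraries (adjusted p 0.0773 to 0.144), and that in NES without EV vehicle replicate 3 or NES vehicle replicate 2 or 3 (0.0647 to 0.0849). Both were lost with only the 2 groups in the fit (0.0601 and 0.209) and without the libraries high in mitochondrial counts (0.177 and 0.0819), and that in WT also without the filter on low counts (0.180). R1881 itself changed PFAS by -0.20 in EV and by -0.18 to 0.24 in the rescue lines, and no response passed. The annotated span of PFAS overlaps the opposite-strand gene CTC1 by 478 bases, and the strand setting of the counting is not given in the sources used here.

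Among the other purine genes no difference from EV passed in any line. IMPDH2 was 0.33 ± 0.13 higher in NLSKD, 0.28 ± 0.13 in WT and in NLS and 0.26 ± 0.13 in NES under R1881 (edgeR adjusted p 0.140 to 0.260), beside EV libraries of 304 to 329 CPM. IMPDH1 was 0.67 ± 0.23 higher in NES than in EV under R1881, without overlap (edgeR adjusted p = 0.0770).

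CAD (ENSG00000084774, hg38 chromosome 2, 27217390 to 27243943) carries the rate-limiting step of pyrimidine synthesis and had 47.6, 51.2 and 65.8 CPM in EV under R1881. In NES it had 78.9, 87.5 and 93.7 CPM, above all EV libraries (0.66 ± 0.19, edgeR adjusted p = 0.0346). In WT it had 54.3, 90.5 and 99.4 CPM, with overlap (0.57 ± 0.19, edgeR adjusted p = 0.0672), in NLS 57.6, 70.2 and 91.3 CPM (0.41 ± 0.19, edgeR adjusted p = 0.260), and in NLSKD 61.1, 71.0 and 76.0 CPM (0.34). Under vehicle the EV libraries had 68.8, 72.4 and 73.7 CPM, and the differences ran from -0.02 in NLSKD to 0.21 in WT. The call in NES was lost without any 1 of 5 libraries, all but EV R1881 replicate 3 (adjusted p 0.0522 to 0.161), without the filter on low counts (0.108) and without the libraries high in mitochondrial counts (0.112).

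**Figure D4:**
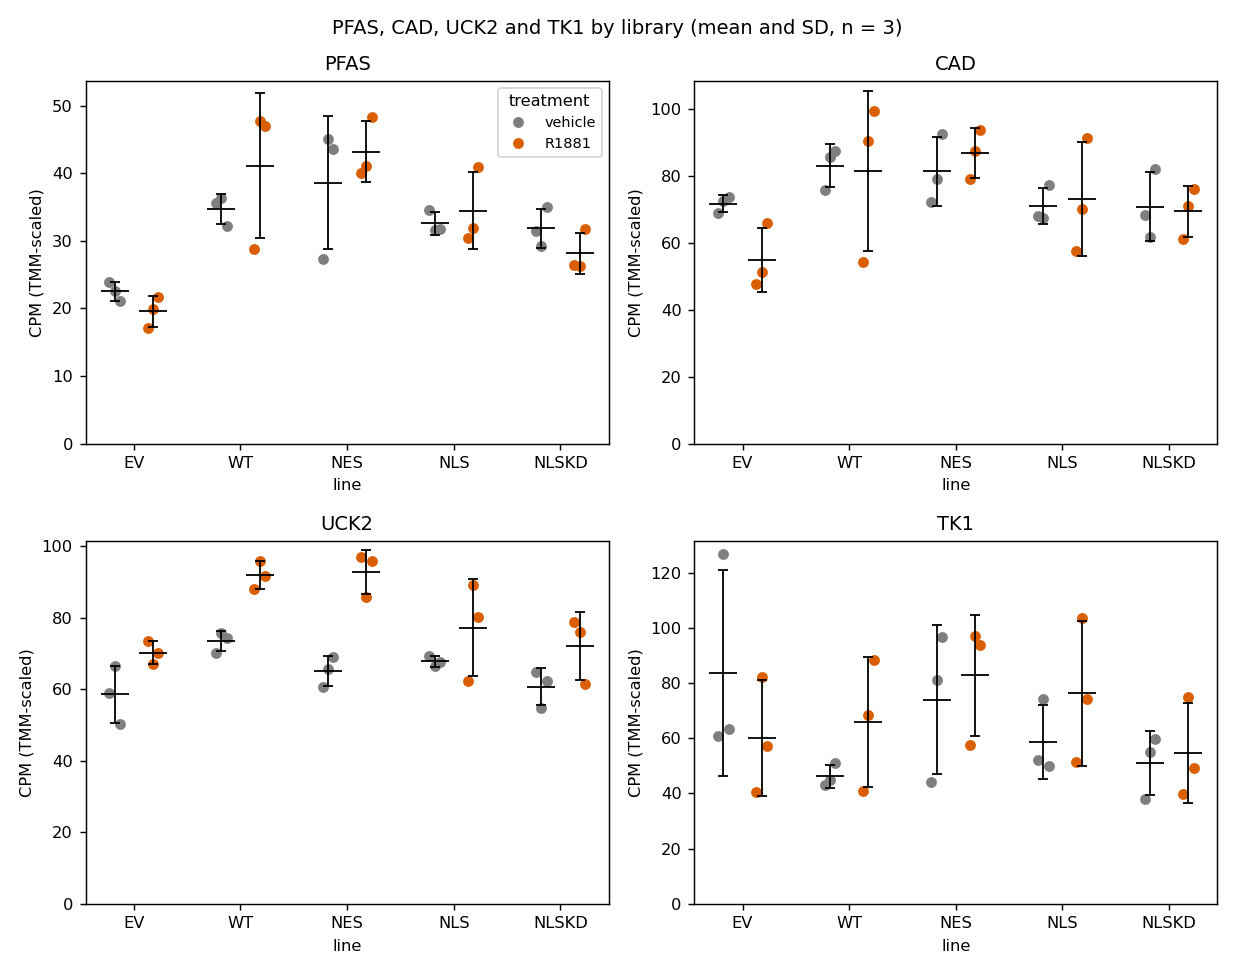
CPM of PFAS, CAD, UCK2 and TK1 per library (points), with the mean and SD of 3 libraries (black), by line and treatment. All PFAS points of the 4 rescue lines lie above those of EV under the same treatment, while the points of TK1 spread widely within groups.

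TYMS (ENSG00000176890, hg38 chromosome 18, 657604 to 673578) had 12.9, 11.2 and 11.1 CPM in EV under R1881 and 24.8, 21.9 and 28.7 CPM in NES (1.10 ± 0.31, 2.14-fold; edgeR adjusted p = 0.0319). WT had 19.6, 20.995 and 23.3 CPM, also above all EV libraries, but the difference of 0.86 ± 0.31 did not pass (edgeR adjusted p = 0.0980). NLS had 10.2, 12.4 and 17.4 CPM and NLSKD 13.2, 11.8 and 12.1 CPM, and both overlapped EV. The call in NES was lost without any 1 of its 6 libraries (adjusted p 0.0507 to 0.136). The TYMS span overlaps the opposite-strand genes TYMSOS and ENOSF1.

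RRM2 under R1881 had 45.0, 32.6 and 44.2 CPM in EV, 85.1, 60.1 and 67.5 CPM in WT (0.80 ± 0.28, edgeR adjusted p = 0.0795) and 80.0, 72.9 and 71.9 CPM in NES (0.88 ± 0.28, edgeR adjusted p = 0.0576). The WT and NES libraries lay above those of EV, and neither difference passed. RRM2 shares 8681 bases of its span with the same-strand gene AC007240.1, so reads common to both may have been left out or split. RRM1, the large subunit of the same reductase, differed from EV by 0.32 in WT and 0.27 in NES. The median of the 4 deoxynucleotide genes was 0.74 in NES, 0.58 in WT, 0.28 in NLS and 0.16 in NLSKD against EV under R1881, beside medians of 0.02 to 0.04 over all genes.

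Genes of DNA replication and S phase, none of them among the 30, moved beside these. Of 24 such genes, 12 were higher than in EV under R1881 in NES, 10 in WT, 3 in NLS and 1 in NLSKD, and none was lower (median log2 difference 0.78, 0.77, 0.49 and 0.35). Without EV R1881 replicate 1 or 3 or NES R1881 replicate 2 or 3 the count in NES was 5 or 6, and leaving out 1 library gave 7 to 9 in WT. In NLS it was 0 without EV R1881 replicate 1 or NLS R1881 replicate 3, went to 1 when EV R1881 replicate 3 was left out and to 5 when NLS R1881 replicate 1 was, and in NLSKD it was 0 without EV R1881 replicate 1 or 3 or NLSKD R1881 replicate 2. With the replicate block the counts in WT, NES, NLS and NLSKD were 18, 20, 10 and 4. With only the 2 groups in the fit they were 10, 16, 0 and 0. DESeq2 gave 6 in NLS and 2 in NLSKD, and no filter on low counts gave 2 and 0. Without the libraries high in mitochondrial counts the count was 8 in NES and 5 in NLS. MCM2, a subunit of the replicative helicase, differed by 0.98 in NES and 1.11 in WT. Under R1881 their CPM summed to 846 ± 65.9 for EV, 1095 ± 85.2 for NLSKD, 1187 ± 143 for NLS, 1450.2 ± 91.2 for WT and 1470.5 ± 56.6 for NES. Under vehicle the sums were 941 ± 28.9, 924 ± 218, 870.2 ± 70.4, 1064 ± 63.5 and 1217 ± 157 CPM in the same order, and none of the 24 genes was called against EV. Without NES vehicle replicate 1 the count in NES under vehicle was 2, without the filter on low counts it was 1, and with the replicate block it was 4. The part of the S phase genes in the levels of TYMS and RRM2 was not tested.

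**Figure D5:**
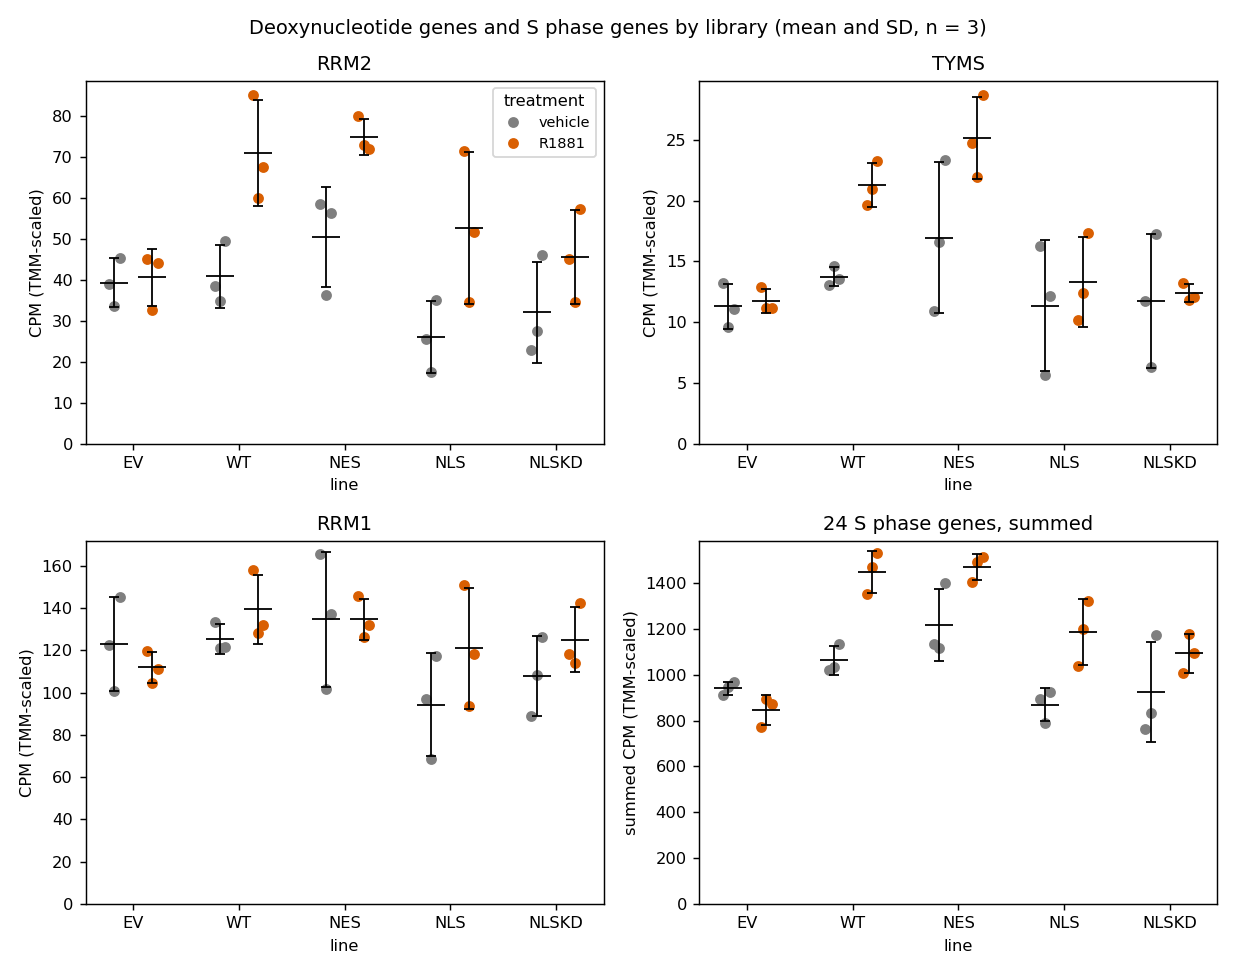
CPM of RRM2, TYMS and RRM1 and the summed CPM of 24 S phase genes per library (points), with the mean and SD of 3 libraries (black), by line and treatment. Under R1881 the WT and NES points of RRM2, TYMS and the S phase sum lie above those of EV, while RRM1 differs little.

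TK1, the thymidine kinase of the salvage pathway, spread widely within groups. Under vehicle EV had 60.7, 127 and 63.3 CPM and WT 43.0, 44.8 and 51.0 CPM, without overlap, and the difference of -0.85 ± 0.35 did not pass (edgeR adjusted p = 0.179). UCK2 differed from EV under R1881 by 0.39 ± 0.14 in WT (edgeR adjusted p = 0.0849) and 0.40 ± 0.14 in NES (edgeR adjusted p = 0.0829), where 88.2 to 96.0 and 85.8 to 97.0 CPM stood against 67.0 to 73.5 CPM in EV.

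For NLSKD against EV the count of 0 in edgeR stood beside 2 genes at an unadjusted p under 0.05 under R1881 and 1 under vehicle. Of all genes, 16.5% and 12.9% had such an unadjusted p. DESeq2 called 1 and 0 and limma 0 and 0. Same-numbered libraries deviated together in these comparisons and in NLS against EV. With the replicate block PFAS was called in NLSKD under R1881 (0.53, adjusted p = 0.0425), a count of 1. For NLS under vehicle, where edgeR called 0 genes, 3 had an unadjusted p under 0.05 (14.8% of all genes). DESeq2 and limma called 0 there and the block called 2, PFAS (0.53, adjusted p = 0.0436) and ADSS (-0.54, adjusted p = 0.0319), which starts the AMP branch.

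The last comparisons set nuclear against exported mTOR, and the NLS form against its kinase-dead version. MTOR itself was 4.14-fold lower in NLS than in NES under R1881 and 5.65-fold lower under vehicle (edgeR adjusted p = 0.000884 and 0.000181), so the location and the amount of mTOR cannot be told apart there. Between NLS and NES none of the 30 genes passed under R1881 (1.37% of all genes called in either direction) or vehicle (1.03%). In edgeR 1 and 4 genes had an unadjusted p under 0.05 (9.19% and 8.39% of all genes), and DESeq2 and limma called 0. TYMS was lower in NLS than in NES by 0.92 ± 0.31 under R1881 without overlap (edgeR adjusted p = 0.204), and RRM2 by 0.95 ± 0.28 under vehicle, also without overlap (edgeR adjusted p = 0.125). PFAS differed by -0.33 ± 0.19 under R1881 and -0.24 ± 0.19 under vehicle, with overlap.

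Between NLS and NLSKD again none passed under R1881 (0.00547% of all genes) or vehicle (0.0109%), and neither DESeq2 nor limma called any. The count at an unadjusted p under 0.05 was 0 under R1881 and 0 under vehicle, against 1.95% and 1.63% of all genes. The median log2 difference of the 30 genes was -0.01 and -0.06. PFAS differed by 0.29 ± 0.19 under R1881 and 0.03 ± 0.19 under vehicle, and IMPDH1 by 0.26 ± 0.22 and 0.24 ± 0.23. With errors of this size a moderate difference was not detectable.

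Other genes of nucleotide metabolism were read from a companion list of 35, of which 32 were tested. UPP1, the uridine phosphorylase that breaks uridine down, was higher than in EV under R1881 in all 4 rescue lines. EV had 3.35, 2.94 and 3.16 CPM, WT 7.11, 8.23 and 9.97 CPM (1.42 ± 0.27, edgeR adjusted p = 0.000744), NES 5.62, 6.14 and 7.90 CPM (1.05 ± 0.27, edgeR adjusted p = 0.0141), NLS 8.71, 9.67 and 9.08 CPM (1.54 ± 0.27, edgeR adjusted p = 0.000446) and NLSKD 7.41, 9.93 and 7.40 CPM (1.39 ± 0.27, edgeR adjusted p = 0.00160). No rescue library overlapped EV. The call in NES was lost without EV R1881 replicate 2 or 3 or NES R1881 replicate 3, and the other 3 held under every alternative. With R1881 in EV, 2 companions fell: CMPK2, a mitochondrial nucleotide kinase, by a factor of 2.83, and SAMHD1, which breaks down deoxynucleotides, by a factor of 1.49 (edgeR adjusted p = 0.00129 and 0.0150). PNP, the purine nucleoside phosphorylase, rose with R1881 in NES by 0.44 (edgeR adjusted p = 0.0472) and was lower in NLS than in NES under R1881 (-0.60, edgeR adjusted p = 0.0209). CTPS2, the second CTP synthase, was lower in NLS than in EV under R1881 (-0.49, edgeR adjusted p = 0.0459). CMPK2 held under every alternative, while SAMHD1 and PNP in NLS against NES were each lost in 7 of 14, CTPS2 in 8 and the rise of PNP in NES in 10. The other 27 were called in no comparison. Thus 5 of the 32 tested companions were called at least once between groups, against 23.1% of all genes tested. The companions were therefore not called more often than genes in general.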

How the data were processed

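Gene expression was measured as total RNA of 30 LNCaP samples. The authors deposited a raw read count and an FPKM for each of 58735 genes and each library, per the file headers. The submitters' processing notes name HISAT2 2.0.5, featureCounts 1.5.0-p3 and hg38, with no role or order. How strand and multiply aligned reads were handled in counting is not given in the sources used here. All 58735 gene positions equalled those of GENCODE release 29, and 0 columns lacked a sample.

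Raw counts were tested in R 4.3.3 with edgeR 4.0.16 (TMM, filterByExpr, glmQLFit, glmQLFTest, two-sided), in a single fit of all 30 libraries with a mean for each group, because 3 libraries alone estimate the spread poorly. The procedure was tested on simulated data with the same relative spread for every gene and no effect of replicate number. Its error rate in the real libraries was therefore not measured. Genes were called below an adjusted p of 0.05 (Benjamini-Hochberg over the 18296 genes of a comparison). CPM values were scaled by TMM. The 21 comparisons were 5 androgen responses, 8 of a rescue line against EV, 4 of NLS against NES or NLSKD, and 4 interactions. Totals of 21435364 to 61762468 counts set the precision, and counting error is contained in the spread of 3 libraries.

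The 30 genes, the companion list and the S phase list were chosen with earlier results of these data known. The rule named every called member, gave library values for the 2 members of each role group called most often, and named the companions called. The library values of ATIC, IMPDH2 and UPP1, the example MCM2 and the genes given by replicate number were chosen after their values were seen. Another motif that was searched and 1 luminal marker are not reported here.

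Same-numbered libraries share a number in their titles. Their deviations correlated above 0.1 in all 3 pairs of 10 of the 17 comparisons, and the replicate block is read as a pairing there. The alternatives were RLE factors, library totals only, DESeq2 1.42.0, no filter, only the groups compared in the fit, the replicate block, limma 3.58.1 on log2(FPKM + 1), the 5 libraries above 9% mitochondrial counts left out, and each library left out in turn. For the companion and S phase genes these were added after seeing the data.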

Additional observations from a re-analysis of the deposited data

How the results depend on the processing

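No call reversed under any alternative. Of the 17 calls, all 17 held with RLE factors, with DESeq2 and with the replicate block, 15 with limma on FPKM, 13 with library totals only, 11 without the filter, 10 without the 5 libraries above 9% mitochondrial counts and 8 when the fit held only the groups compared. Leaving out 1 library kept the call in 57 of 102 refits and lost it in 45. Calls that held in each refit and alternative were IMPDH1 with R1881 in WT and NES, and PFAS in WT and NES against EV under R1881. The cause of the shifts below was not tested. With 3 libraries a group and standard errors such as 0.23 for IMPDH1 on the log2 scale, small changes of these genes could not be called.

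The share of all genes called was not kept for the alternatives. A general change in calls therefore cannot be told apart from a change in these genes. The number of the 30 genes called moved as follows. With the replicate block, read as a pairing where same-numbered libraries deviated together, it was 5 for the androgen response in EV (2 without the block), 5 in NES (3), 1 in NLSKD against EV under R1881 (0) and 2 in NLS against EV under vehicle (0). In comparisons where the numbers do not pair all 3 libraries, the block gave 5 in WT (1) and 6 in NES (3) against EV under R1881, 2 in WT against EV under vehicle (1) and 1 in NLS against NES under vehicle (0). For the S phase genes against EV it gave 18 in WT (10) and 20 in NES (12) under R1881 and 4 in NES under vehicle (0). It changed no other count of the 30 genes by over 1.5 times, and 21 of 30 libraries correlated best with their own number, a hint from the data and not from the design. Without the filter the counts were 1 for the response in EV, 1 in NES, 3 in WT against EV under R1881 and 1 in NLS against NES under vehicle. With only the groups compared they were 1, 1 and 0 for the responses in EV, NES and NLS, 3, 5 and 0 for WT, NES and NLS against EV under R1881, and 0 and 0 for WT and NES against EV under vehicle. Without the libraries above 9% mitochondrial counts they were 1, 0 and 0 for the responses in EV, NLS and NLSKD, 2 for WT against EV under R1881, and 0 and 0 for WT and NES under vehicle. Library totals only gave 1 and 0 for the responses in NLS and NLSKD, and limma 0 in NLSKD. DESeq2 gave 3, 5 and 1 for WT, NES and NLSKD against EV under R1881. With 1 library left out the counts ran from 1 to 2 for the responses in EV and WT, from 0 to 1 in NLS and NLSKD, from 1 to 2 for WT and NES against EV under R1881, from 0 to 2 for NLS, and from 0 to 1 for NES and 0 to 0 for WT under vehicle.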

Other observations

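Some of these genes were highest in libraries of the same replicate number across groups. TKT, a transketolase of the pentose phosphate pathway, and APRT were highest in the library numbered 2 in all 10 groups, GART, a trifunctional enzyme of purine synthesis, in the library numbered 1 in all 10, and CAD in the library numbered 3 in all 10. For 13 of the 30 genes 1 number was the highest in at least 7 of the 10 groups, and for the other 17 no number was. The same count over all genes was not made. APRT deviated from its group mean by -0.43 in libraries numbered 1 and 0.49 in those numbered 2 on the log2 scale, and the nucleoside diphosphate kinase NME1, which shares its span with the readthrough gene NME1-NME2, by -0.38 and 0.49. The salvage kinase DCK, whose span shares 29912 bases with the same-strand gene MOB1B, went the opposite way, with 0.22 and -0.34. APRT in NLS under R1881, for example, had 105, 394 and 215 CPM. IMPDH1 was highest in the library numbered 2 in 8 groups and never lowest there, with mean deviations of -0.18, 0.22 and -0.04 for numbers 1 to 3, while its rises with R1881 were between 0.80 and 1.18. The labels do not say what the numbers share.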
